A study of Mus musculus with 8 samples.

Results

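The 40 genes described here encode the cyclic AMP (cAMP) signalling chain from the stimulatory G protein to CREB-dependent transcription. They were taken by name, by a rule that uses no measured value although the list was drawn up with earlier results of these data known, and are 40 of the 22609 gene rows measured. They are 9 CREB-family factors and coactivators, 8 adenylyl cyclases with the G protein subunit Gnas, 6 subunits of protein kinase A (PKA), 10 phosphodiesterases, and 6 genes for Epac proteins, CREB kinases and A-kinase anchoring proteins (AKAPs).

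Gene expression was measured by RNA sequencing of total RNA from anterior cingulate tissue of the medial prefrontal cortex, taken from both hemispheres of B6.SJL mice aged 3 months, 1 h after behavioural training. Mice of the fear conditioning group (4 samples) explored a chamber for 3 min, were given 2 shocks to the feet (0.8 mA, 2 s, separated by 30 s) and remained for 15 s, so that the place was paired with the shock. Mice of the context control group (4 samples) went through the same chamber procedure and received no shock. No home cage group is among the 8 samples, so both groups had been exposed to the chamber, and how many animals gave each sample is not stated. The design text calls the 4 samples of each group biological replicates, and p-values below rest on the spread between them.

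In neurons, neurotransmitters acting through Gs-coupled receptors and calcium entering through synaptic channels activate adenylyl cyclases, which make cAMP. cAMP releases the catalytic subunits of PKA from the regulatory subunits and also activates the Rap exchange factors known as Epac, while phosphodiesterases break cAMP down. PKA and calcium-dependent kinases phosphorylate CREB, which binds the cAMP response element (CRE) in promoters and recruits Crebbp, Ep300 and the Crtc coactivators, and this chain is among the best studied in long-term memory.

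The CRE is the DNA sequence through which the pathway reaches its target genes, and it is shown for the pathway member that carries the full element, for the member with the clearest separation of the groups, and for 3 textbook CREB target genes. Sequences are from RefSeq on the mouse build GRCm38.p6, upstream of an annotated start (1 of several in Prkar1a) and read 5′ to 3′ on the gene's strand. Capitals mark the full 8-base element TGACGTCA or, where that is absent, its 5-base core TGACG.
Prkar1a, chr11:109650889-109650918, plus strand: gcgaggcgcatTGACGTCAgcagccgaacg
Sst, chr16:23890874-23890903, minus strand: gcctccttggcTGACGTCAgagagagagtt
Btg2, chr1:134079303-134079332, minus strand: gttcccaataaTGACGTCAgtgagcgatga
Fos, chr12:85473813-85473842, plus strand: gttccgcccagTGACGtaggaagtccatcc
Adcy9, chr16:4420499-4420748, minus strand: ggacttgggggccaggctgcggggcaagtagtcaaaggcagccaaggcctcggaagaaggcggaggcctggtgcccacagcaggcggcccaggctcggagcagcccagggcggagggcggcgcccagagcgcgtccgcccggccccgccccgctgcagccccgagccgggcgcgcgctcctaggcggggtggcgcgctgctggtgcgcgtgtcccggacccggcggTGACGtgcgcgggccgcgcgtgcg

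Promoter windows of 300 bases (250 before and 50 after the start) were found for 35 of the 40 genes, 73 windows in all, and searched on both strands. The full element occurred in 2 overlapping windows of 1 gene, Prkar1a, which is 2.74% of the pathway windows against 1.79% of all 32851 windows in the table. Its core TGACG, which the full element also contains, occurred in 22 pathway windows (30.1%), against 20.8% of all windows. Counted by gene it occurred in 18 of the 35 (51.4%), against 23.05% of the 27025 genes in the table, but the 35 genes have more windows each (73, against 32851 for the 27025). In Adcy9 the core began 24 bases before the start, and in Pde1a 166 bases before it. A match describes letters in the window and was not tested as a site of CREB binding.

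Values are counts of reads per gene that carry a scaling factor particular to each sample, without correction for gene length, and are given as mean ± SD over 4 samples per group. Recovered gene reads ranged from 1992452 to 3565356 per sample, with 14276 to 15161 genes above 0. Marker lists were used to describe the cell content of the tissue, and the general neuronal list cannot establish that it is cortex. The 11 neuronal markers summed to between 19646 and 24809 in context controls and between 20537 and 25457 after conditioning. Markers of glia, vessels, meninges, choroid plexus and striatal neurons were also present, and none was at 0 in all 8 samples. All 9 astrocyte, 10 oligodendrocyte, 7 oligodendrocyte precursor, 9 microglial and 10 vascular markers had a lower mean log2 value after conditioning. Median log2 differences in these lists ran from -0.28 to -0.49. The 8 meningeal and 5 tested choroid plexus markers were also all lower, with medians of -0.66 and -0.74. Summed values of both these lists overlapped between groups. All 9 deep-layer and 9 of 11 general neuronal markers had a higher mean log2 value, as had 1 of 7 upper-layer markers. In tissue RNA, fewer cells of a type and less RNA per cell cannot be told apart, and the part of these shifts in the values below was not tested.

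No member of the cAMP and CREB pathway passed the test of fear conditioning against context control. All 40 passed the filter on low values and were tested among 14704 genes by limma, where 0 members and 0 genes (0%) reached an adjusted p under 0.05. At an unadjusted p under 0.05 stood 3 of the 40 members, against 2.70% of all genes tested: the cyclase Adcy9 and the phosphodiesterase Pde1a, with higher means after conditioning, and the phosphodiesterase Pde7b, with a lower mean. edgeR and DESeq2 on recovered reads gave the same 3 members at that level and also 0 genes past the threshold, with 385 and 340 genes at an unadjusted p under 0.05. The mean log2 value was higher in 26 members and lower in 14, and 51.8% of all genes were higher. The median log2 difference was 0.06 over the members and 0.01 over all genes. Quantile normalization gave 19 members higher and a median of -0.0049. The 95% confidence interval of a member's log2 difference reached from 0.28 to 1.19 to either side, with a median of 0.46.

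**Figure D1:**
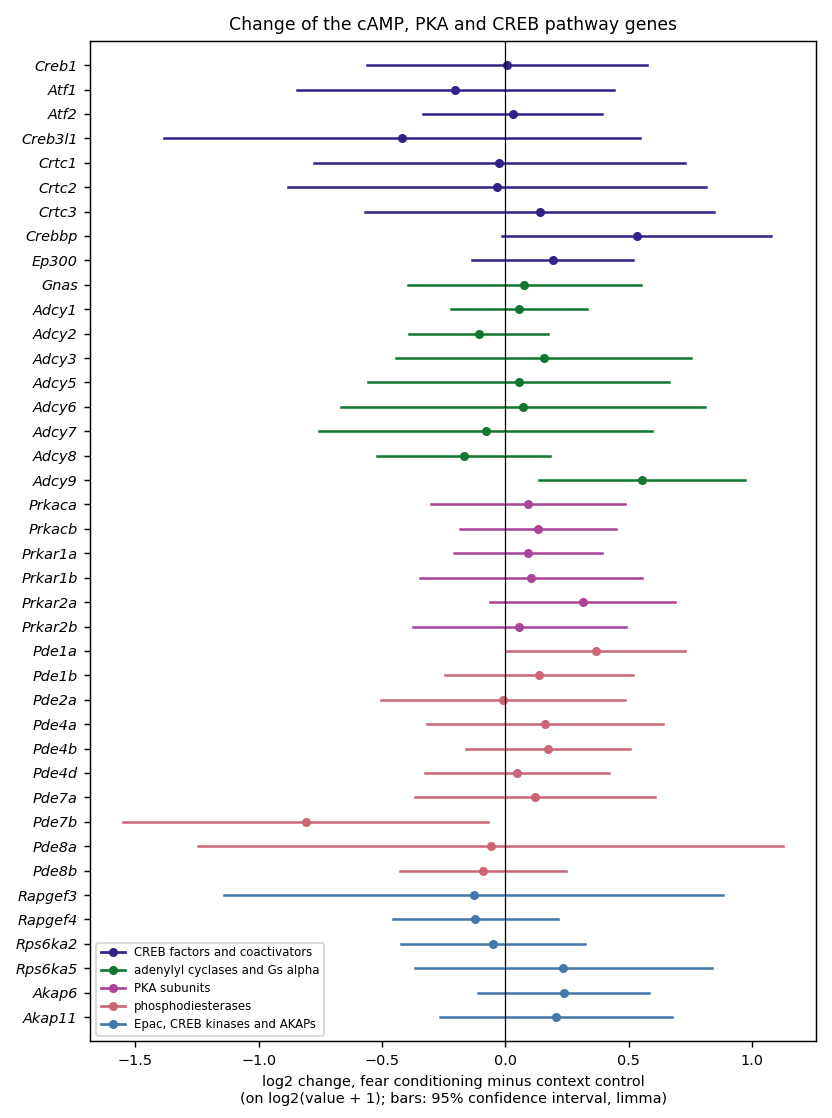
Log2 difference between fear conditioning and context control (x axis, on log2(value + 1)) for each of the 40 pathway genes (y axis), coloured by role, with bars for the 95% confidence interval from limma. The intervals of Adcy9, Pde1a and Pde7b leave out 0, and no adjusted p was under 0.05.

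Among the genes that make cAMP, the 8 adenylyl cyclases differed widely in level. The groups overlapped in all of them but Adcy9, which is 1 of the 40 members (2.5%), near the 1.92% of all genes without overlap. Adcy1, the calcium- and calmodulin-stimulated cyclase of forebrain neurons, held 66.4% ± 2.04 of cyclase reads in context controls and 67.5% ± 1.14 in the conditioned group (SD, n = 4). Its 8 values in order of replicate number were 3942, 4503, 4062 and 3729 in context controls against 4612, 4434, 3852 and 3977 after conditioning, the order used for all genes below. The groups overlapped, with a log2 difference of 0.06 and a 95% confidence interval from -0.22 to 0.33, among the narrowest of the pathway. Per kb of the longest transcript, Adcy1 stood at 331 ± 26.6 and 344 ± 29.6, and Adcy2, a cyclase stimulated by G protein beta-gamma subunits, followed at 267 ± 31.0 and 246 ± 8.56. The other 6 cyclases were each below 65 per kb in every sample.

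Adcy9 encodes a widely expressed membrane cyclase. It read 148, 129, 124 and 88.5 in context controls and 178, 191, 165 and 175 after conditioning. Each conditioned sample lay above each control, which held for no other member. Over all genes, 0.979% separated in this direction and 1.92% in either. The group means were 122 ± 24.8 and 177 ± 10.6, a log2 difference of 0.55 with a 95% confidence interval from 0.14 to 0.97 and an unadjusted limma p of 0.0131, adjusted 0.99978. As a share of all cyclase reads in the same sample, Adcy9 was 2.00% ± 0.405 in context controls and 2.84% ± 0.159 after conditioning. The unadjusted p stayed at or below 0.0424 under every alternative processing run, each left-out library included. After correction for GC content, however, the groups overlapped and the within-group SD of its log2 values was 0.40, against 0.23 without it. The unadjusted limma p of Adcy9 was then 0.0356. Its read support was modest, at 55 to 182 recovered reads per sample.

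Adcy9 and Crebbp, the CREB-binding acetyltransferase, are neighbouring genes on chromosome 16 in RefSeq, and they had the highest pair of log2 differences among the 40. Crebbp read 98.8, 146, 93.8 and 64.4 in context controls, and 181, 121, 128 and 138 after conditioning. Context control replicate 2 lay inside the conditioned range, and the other controls lay below it. The log2 difference was 0.53, with a 95% confidence interval from -0.01 to 1.08 and an unadjusted limma p of 0.0548. With replicate numbers as a block this was 0.041. Of the other genes around the pair, Trap1, Dnase1, Srl, Slx4 and Glis2 had log2 differences of 0.01, 0.03, -0.05, 0.35 and -0.22, with unadjusted limma p from 0.314 to 0.939.

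The remaining cyclases showed no separation. Adcy8, the other calmodulin-stimulated cyclase, read 165, 184, 162 and 174 in context controls and 163, 143, 137 and 168 after conditioning, with a log2 difference of -0.17 (95% confidence interval -0.52 to 0.18). Its lowest values were in fear conditioning replicates 2 and 3, and the groups overlapped. Adcy2 read 1015, 1013, 1201 and 1268 against 985, 1065, 1054 and 1047, a difference of -0.11 on the log2 scale. Its high values came from context control replicates 3 and 4 alone. The calcium-inhibited cyclases Adcy5 (313 ± 95.5 and 331 ± 119.6) and Adcy6 (115 ± 47.8 and 120.1 ± 47.1), with Adcy3 (148 ± 41.5 and 165 ± 48.3) and Adcy7 (51.9 ± 15.7 and 49.6 ± 15.9), had differences between group means below their SDs.

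Gnas, the stimulatory G protein alpha subunit that couples receptors to these cyclases, read 1291, 1871, 1122 and 1599.7 in context controls. After conditioning it read 1904, 1854, 1518 and 1001, so that both the highest and the lowest of the 8 values were in conditioned samples. The log2 difference was 0.08 (95% confidence interval -0.40 to 0.55). The Gnas locus gives several overlapping transcripts and an antisense RNA, and whether counting used strand is not given in the sources used here. These reads cannot be divided among those transcripts.

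**Figure D2:**
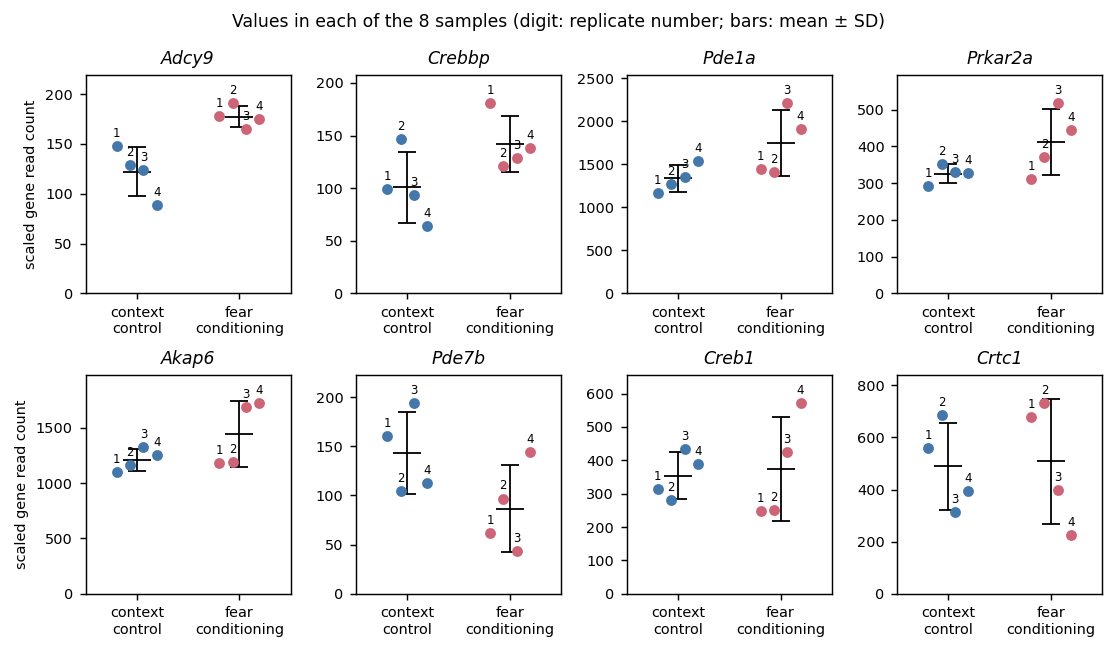
Scaled gene read count (y axis, from 0) of 8 pathway genes in each sample, context control in blue and fear conditioning in red, with the replicate number beside each point and bars for mean ± SD (n = 4). In Adcy9 the conditioned samples, from 165 to 191, all lie above the controls, from 88.5 to 148, and in the other 7 genes the groups overlap.

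All 6 PKA subunit genes had a higher mean after conditioning, by 0.06 to 0.31 on the log2 scale with a median of 0.10, and 0 of the 6 passed the threshold or an unadjusted p of 0.05 in limma. Under quantile normalization Prkar1a, Prkar1b and Prkar2b were lower instead. The catalytic subunits carry the kinase activity. Prkacb read 2173, 2619, 2519.9 and 3139.9 in context controls and 2625, 2644, 3312 and 2837 after conditioning, a log2 difference of 0.13 (95% confidence interval -0.18 to 0.45). The values overlapped, with the lowest in context control replicate 1 and the highest in fear conditioning replicate 3. Per kb of the longest transcript, Prkacb made up 63.6% ± 4.53 of the catalytic level in context controls and 64.2% ± 5.26 after conditioning, and Prkaca the rest.

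Regulatory subunits hold the catalytic subunits inactive until cAMP binds. Type I subunits dominated: per kb, Prkar1a made up 45.1% ± 2.54 and 44.4% ± 3.36 of the regulatory level, and Prkar1b, the neuronal type I subunit, 42.8% ± 3.65 and 42.8% ± 7.55. The 2 type I genes did not differ from each other beyond these spreads. Prkar1b read 1597, 2119, 1411 and 2052 in context controls and 2399, 2266, 1898 and 1264 after conditioning. The conditioned samples thus spanned the whole control range, and the log2 difference was 0.10 (95% confidence interval -0.35 to 0.55).

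Prkar2a, a type II regulatory subunit that binds AKAPs, had the highest difference of the PKA genes. Its values were 293, 353, 329.7 and 328 in context controls, and 312, 371, 518 and 445 after conditioning. Only fear conditioning replicate 1 lay inside the control range. Means of 326 ± 24.7 and 412 ± 89.3 gave a log2 difference of 0.31 (95% confidence interval -0.06 to 0.69), with an unadjusted limma p of 0.0944. Prkar2b, its paralogue abundant in brain, was 421 ± 47.7 and 449 ± 125, and Prkar1a, which carries the full CRE shown above, was 2508 ± 344 and 2659 ± 228.

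Phosphodiesterases end the cAMP signal, and Pde1a and Pde7b, the members at an unadjusted p under 0.05 among the 10, differed in opposite directions. Pde1a encodes a calcium- and calmodulin-activated enzyme that degrades cAMP and cGMP. It read 1171, 1276, 1358 and 1542 in context controls and 1450.0, 1413, 2214 and 1908 after conditioning. Fear conditioning replicates 3 and 4 lay above every control, while replicates 1 and 2 lay below context control replicate 4. The log2 difference was 0.37, with a 95% confidence interval from 0.0043 to 0.73 and an unadjusted limma p of 0.0477, 0.0155 with the replicate block and 0.0108 after GC correction. With quantile normalization, and with no filter on low values, it was no longer at an unadjusted p under 0.05. The same held without context control replicate 1, 2 or 3, or fear conditioning replicate 3 or 4. Of the summed level per kb of the 10 listed phosphodiesterases, Pde1a took 24.5% ± 3.09 in context controls and 29.0% ± 5.69 after conditioning. The summed deep-layer neuron markers were also highest in fear conditioning replicate 3, at 3213 against a range of 1624 to 2431 in controls, and their part in the Pde1a values was not tested.

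Pde7b encodes a cAMP-specific enzyme insensitive to the inhibitor rolipram, known for its expression in striatum. It read 160.3, 105, 194 and 113 in context controls, and 62.1, 96.8, 43.7 and 144 after conditioning. Fear conditioning replicates 1 to 3 lay below every control, and replicate 4 lay among them. The means of 143 ± 41.8 and 86.7 ± 44.1 gave a log2 difference of -0.81, the lowest of the 40, with a 95% confidence interval from -1.55 to -0.07 and an unadjusted limma p of 0.0343. Leaving out a library moved this difference between -1.10 and -0.53 on the log2 scale, and it was no longer at an unadjusted p under 0.05 without context control replicate 1 or 3, or fear conditioning replicate 1 or 3. Of the 10 striatal neuron markers tested, 5 were higher and 5 lower after conditioning. Their summed value ranged from 605 to 1060 in context controls and from 662 to 883 after conditioning, so the groups overlapped. The part of striatal tissue in the Pde7b values was not tested.

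The other 8 phosphodiesterases gave no separation. Pde1b, the second calmodulin-activated enzyme, read 499, 530.5, 356 and 481 against 532, 629, 478 and 413, a log2 difference of 0.13 (95% confidence interval -0.25 to 0.52). Pde4d, a cAMP-specific enzyme of the rolipram-sensitive family that is studied as a drug target for memory, read 528, 474, 617 and 562 against 464, 504, 556 and 761. Its highest value was in fear conditioning replicate 4 and its lowest in replicate 1, and the log2 difference was 0.05 (95% confidence interval -0.32 to 0.42). The family members Pde4a (408 ± 106 and 454 ± 105) and Pde4b (615 ± 66.0 and 697 ± 113) had log2 differences of 0.16 and 0.17.

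Per kb, the cGMP-stimulated Pde2a was the most abundant of the 10 listed phosphodiesterases in context controls. It had 28.9% ± 5.68 of their summed level there and 26.4% ± 6.81 after conditioning. These shares overlapped those of Pde1a, so the order of the first pair was not resolved. Pde7a (76.5 ± 8.17 and 84.3 ± 17.9) and Pde8b (334 ± 29.5 and 315 ± 43.6) had narrow spreads. Pde8a, at 34.1 ± 27.9 and 26.6 ± 11.02, had the widest interval of the pathway, from -1.25 to 1.13 on the log2 scale, with recovered reads from 5 to 73 per sample.

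**Figure D3:**
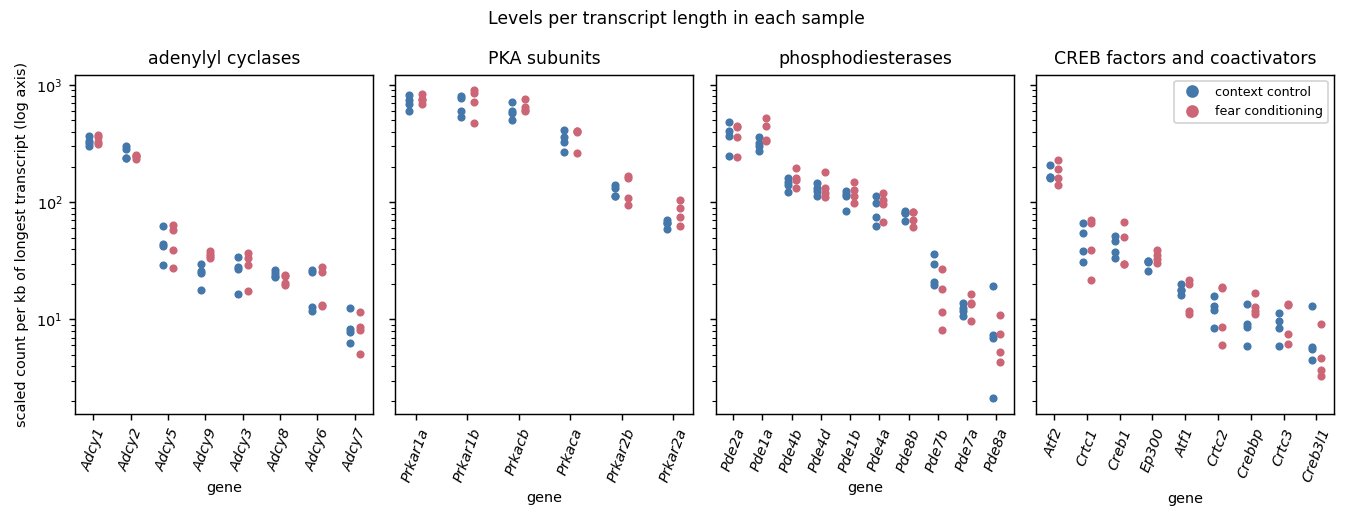
Scaled read count per kb of the longest transcript (y axis, log scale) of adenylyl cyclases, PKA subunits, phosphodiesterases and CREB factors with their coactivators, 1 point per sample, context control in blue and fear conditioning in red. Adcy1 and Adcy2 lie above the other cyclases in every sample, and the range between genes of a family exceeds the range between groups of a gene.

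Downstream of cAMP, Epac transcripts were almost entirely Rapgef4 (Epac2), which held 97.7% ± 1.20 of the Epac level per kb in context controls and 97.6% ± 1.78 after conditioning. Rapgef4 read 1894, 1726, 2366 and 1849 in context controls and 1715, 1463, 2130.3 and 1908 after conditioning, with overlapping groups and a log2 difference of -0.12 (95% confidence interval -0.46 to 0.21). Rapgef3 (Epac1) was 43.9 ± 21.0 and 42.1 ± 25.4. The AKAPs, which hold PKA near its substrates, had a higher mean after conditioning in both listed genes. Akap6 read 1099, 1159, 1330.0 and 1250.5 in context controls and 1183, 1189.8, 1685 and 1720.2 after conditioning. Fear conditioning replicates 3 and 4 were above all controls, and the log2 difference was 0.24 (95% confidence interval -0.11 to 0.58), with an unadjusted limma p of 0.163. Akap11 was 1575 ± 282 and 1867 ± 585. The CREB kinase genes Rps6ka2 (504 ± 60.1 and 492 ± 104) and Rps6ka5 (95.4 ± 22.4 and 115 ± 38.6) also overlapped between groups.

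None of the 4 CREB-family factors separated the groups, and Creb1 and Atf2 had the closest means. Creb1 read 314, 281, 434 and 389 in context controls and 247, 251, 426 and 571 after conditioning. Its lowest pair of values and its highest value were all in conditioned samples, and the log2 difference was 0.01 (95% confidence interval -0.56 to 0.57). Atf2, which also binds the CRE, was 736 ± 91.5 and 760.0 ± 159. Atf1, the close relative of Creb1, was 42.4 ± 3.61 and 38.2 ± 12.9. Creb3l1, a membrane-bound factor of the endoplasmic reticulum, read 11.6, 33.6, 15.1 and 14.5 against 9.67, 23.9, 12.3 and 8.63, and was highest in replicate 2 of each group. Its log2 difference of -0.42 had a 95% confidence interval from -1.38 to 0.54.

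Crtc coactivators enter the nucleus when cAMP and calcium rise. Crtc1, the main form in neurons, made up 68.4% ± 4.09 of the Crtc level per kb in context controls and 67.7% ± 2.81 after conditioning. It read 559, 688, 315 and 394 in context controls and 678, 731, 399 and 224 after conditioning. In both groups replicates 1 and 2 were above replicates 3 and 4, and the log2 difference was -0.03 (95% confidence interval -0.78 to 0.73). Crtc2 (36.9 ± 9.11 and 39.1 ± 19.9) and Crtc3 (45.4 ± 11.5 and 51.6 ± 19.5) were lower per kb and gave no separation. Of the paired acetyltransferases, Ep300 (288 ± 26.8 and 329 ± 35.6) made up 76.8% ± 4.77 and 72.3% ± 5.30 of the level per kb, and Crebbp the rest.

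Some pathway genes split replicates 1 and 2 from replicates 3 and 4 in both groups, as Crtc1 did, and others did not, as 4 ratios between related genes show. The ratio of Creb1 to Crtc1 values was 0.562, 0.408, 1.38 and 0.988 in context controls against 0.365, 0.343, 1.07 and 2.54 after conditioning, in order of replicate number. The ratio of the catalytic subunits Prkacb to Prkaca was 2.90, 2.76, 4.11 and 3.80 in context controls, and 2.83, 2.94, 3.60 and 4.71 after conditioning. Both ratios were higher in replicates 3 and 4 of both groups than in any sample numbered 1 or 2. This split was absent from the ratio of Crebbp to Ep300, at 0.332, 0.482, 0.310 and 0.260 against 0.621, 0.357, 0.410 and 0.369. It was also absent from the ratio of Adcy9 to Adcy1, at 0.0375, 0.0286, 0.0305 and 0.0237 against 0.0386, 0.0431, 0.0429 and 0.0439.

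Deviations of the samples went with the GC content of the transcripts, to a degree that differed between samples. GC content ranged over the members from 39.6% (Creb1) to 59.5% (Creb3l1). Across the 40 genes, the log2 deviation of a sample from the gene mean had a Pearson correlation with GC of 0.36, 0.72, -0.61 and -0.16 in the 4 context controls against 0.67, 0.81, -0.37 and -0.81 in the 4 conditioned samples. Over 6481 genes whose mean value reached 100 and whose GC content was known, these were 0.41, 0.64, -0.58 and -0.25, and 0.68, 0.71, -0.36 and -0.77. The correlations are across genes of the same libraries and are descriptions, since genes are not independent replicates. In fear conditioning replicate 4, the 20 members of higher GC had a median deviation of -0.51 and the 20 of lower GC one of 0.37. That library held the highest of the 8 values for 11 members and the lowest for 9.

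**Figure D4:**
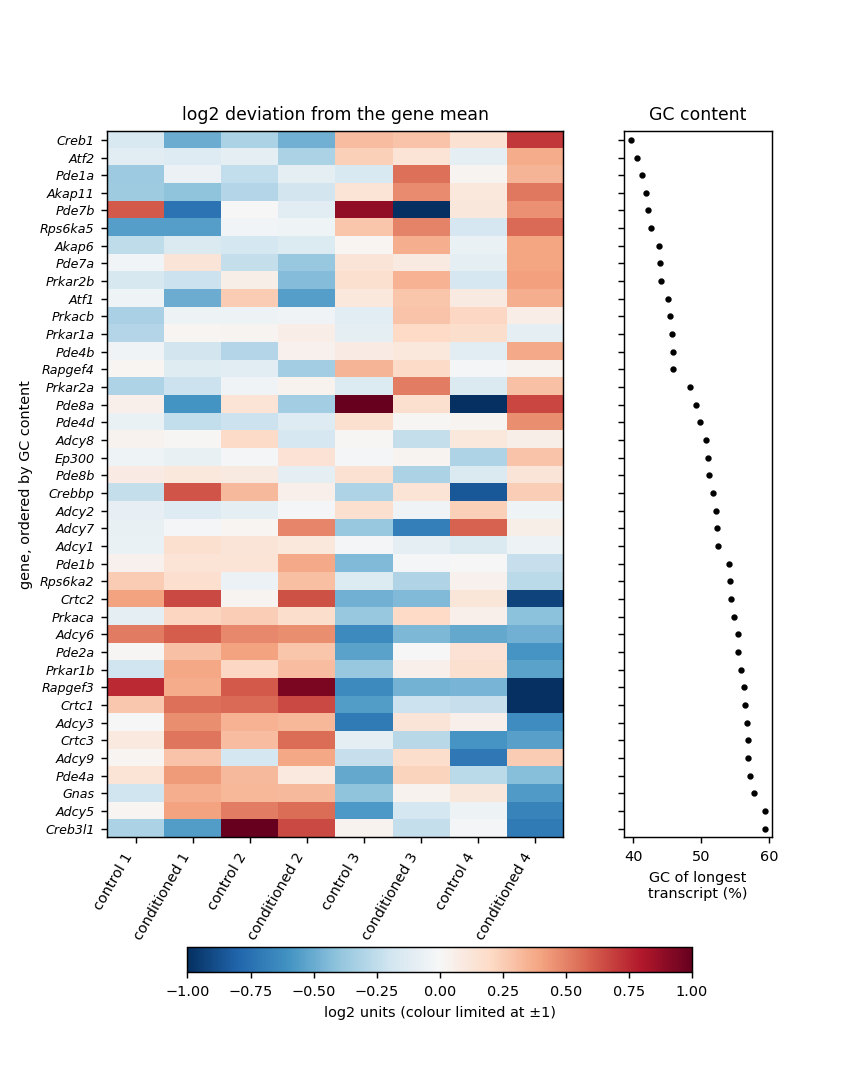
Log2 deviation of each sample from the gene mean (colour, limited at ±1) for the 40 pathway genes in rows, ordered by the GC content plotted at the right (%), with samples in columns and equal replicate numbers side by side. Genes of high GC, such as Crtc1 and Adcy5, are mostly high in replicates 1 and 2 and low in fear conditioning replicate 4, and genes of low GC, such as Creb1, show the opposite.

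**Figure D5:**
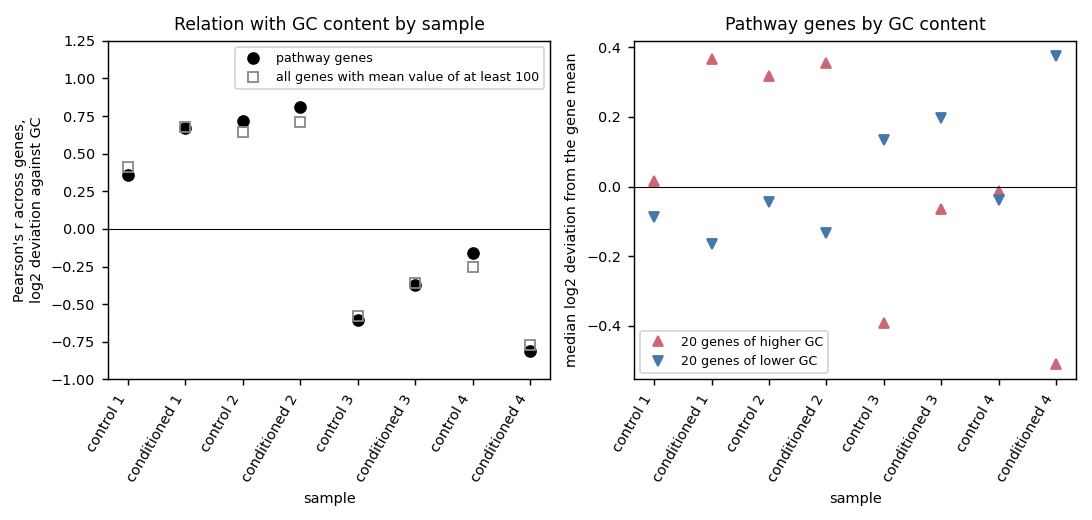
Left, Pearson correlation across genes (y axis) between a sample's log2 deviation and transcript GC content, for the 40 pathway genes (circles) and for all genes whose mean value reached 100 (squares). Right, median log2 deviation of the 20 pathway genes of higher and the 20 of lower GC in each sample, which lie farthest apart in fear conditioning replicate 4, at -0.51 and 0.37.

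Removing a smooth dependence on GC from each library, a step chosen after seeing the data, lowered the median within-group SD of the members' log2 values from 0.33 to 0.20, and 34 of the 40 had a lower SD. Over genes whose mean value reached 100, the median went from 0.27 to 0.20. After this correction 0 members passed the threshold in limma, and 6 members, against 5.34% of all genes, were at an unadjusted p under 0.05. They were Pde1a, Pde7b, Adcy9, Akap6, Crebbp and Prkar2a, with unadjusted p from 0.0108 (Pde1a) to 0.0491 (Prkar2a) and adjusted p from 0.918 to 0.925 in limma. The groups no longer overlapped for Akap6, with conditioned samples higher. The share of all genes without overlap after this correction is not given here, so this count has no background to be read against. What gave rise to the difference in GC dependence between libraries was not tested.

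The wider pathway was examined on 69 tested genes of 5 lists and on 24 tested textbook CREB target genes. Of the 69, 42 had a higher mean log2 value after conditioning and 27 a lower one, with a median of 0.05, and 0 passed the threshold in limma. Akap9 and Atf5 were at an unadjusted p under 0.05, which is 2.90% of the 69 against 2.70% of all genes, so the share was near the background. Akap9, a scaffold that holds PKA at the Golgi and centrosome, read 304, 310.2, 228 and 249 in context controls and 370.1, 375, 312 and 436 after conditioning. Each conditioned value exceeded each control value, and the log2 difference was 0.45 (95% confidence interval 0.09 to 0.81), with an unadjusted limma p of 0.0177, or 0.0244 after GC correction. In its list of 18 AKAP, Rap and Rap exchange factor genes, 15 were higher and 3 lower with a median of 0.13. Rap2a (717 ± 42.8 and 810.3 ± 29.2) also did not overlap, at an unadjusted limma p of 0.172. Akap9 and Rap2a were the 2 of the 69 genes (2.90%) without overlap, against 1.92% of all genes, so this share was also near the background. Rapgef2, a Rap exchange factor, had a log2 difference of 0.25 with an unadjusted limma p of 0.0913.

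Atf5, a factor of the ATF and CREB superfamily linked to cellular stress, read 56.5, 81.9, 71.6 and 64.4 in context controls and 58.0, 43.8, 27.3 and 15.4 after conditioning. Fear conditioning replicate 1 lay inside the control range and the others below it. The log2 difference was -1.05 (95% confidence interval -1.85 to -0.25), with an unadjusted limma p of 0.0139, or 0.000988 after GC correction. The adjusted limma p was 0.99978, or 0.918 after that correction, and recovered reads ranged from 16 to 71 per sample. Its list of 19 tested CREB and ATF factors, regulators and SIK kinases had 9 higher and 10 lower, among them Crebl2 (102 ± 15.8 and 124 ± 17.0). Crem, whose internal promoter yields the cAMP-induced repressor ICER, was 133 ± 23.4 and 124 ± 20.5, and its isoforms are not separated in these values.

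The other 3 lists held no gene at an unadjusted p under 0.05. G protein subunits, further cyclases and the peptide PACAP with its receptor were higher in 8 and lower in 5 of 13, with Gnai1, an inhibitory subunit, at 1123 ± 146 and 1269 ± 220.2 and the soluble cyclase Adcy10 at 3.76 ± 1.36 and 2.49 ± 1.89. PKA inhibitors, related kinases and phosphatase regulators were higher in 4 and lower in 4 of 8, with the inhibitor Pkia at 1071 ± 199.97 and 1359 ± 415 and Arpp19 at 1737 ± 259 and 1577 ± 227. The further phosphodiesterases were higher in 6 and lower in 5 of 11, with Pde10a at 265 ± 49.5 and 297 ± 38.5 and Pde11a at 5.02 ± 1.86 and 3.21 ± 2.41. Adcy10 and Pde11a rested on few reads, at 1 to 5 and 0 to 9 recovered reads per sample.

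Of the 24 tested CREB target genes, 15 had a higher mean and 9 a lower one, with a median log2 difference of 0.11, and 0 passed the threshold in limma. At an unadjusted p under 0.05 stood 4 of the 24 (16.7%), against 2.70% of all genes. The orphan nuclear receptor genes Nr4a3 and Nr4a2 had log2 differences of 0.68 and 0.46, and Btg2 and the enkephalin precursor gene Penk had log2 differences of -0.60 and -0.61. Nr4a3 and Btg2 were the 2 of the 24 (8.33%) whose groups did not overlap, in opposite directions, against 1.92% of all genes. This list was chosen with earlier results of these data known, so both shares are descriptions and not independent evidence about CREB targets. The full CRE is present in the promoter windows printed above for Btg2 and for Sst, the somatostatin gene in which the element was described, and Sst had a log2 difference of 0.25 with overlapping groups (213 ± 38.2 and 266 ± 95.3). Fos, with the core shown above, was 259.7 ± 52.6 and 334 ± 102. How many of the other target genes carry the full element or its core is not given here, so these examples have no background.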

How the data were processed

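RNA from 8 samples, 4 per group by title, was sequenced, and the deposited table holds 22609 gene symbols in 8 columns. TopHat, HTSeq and the build hg19, a human build for mouse symbols, are tools and build per the submitters' processing notes, with no versions, so no coordinates come from that table. The deposited signal, although the table is named FPKM, is a gene read count scaled per sample by the authors and not length corrected: in each column 100% of values above 0 were whole multiples of 1 step within 0.01 of a read. The steps (0.831 to 1.61) gave the recovered reads. Pairs of libraries within groups differed by more than sampling noise (chi-square per degree of freedom 2.50 to 23.6). The origin of the factors, the annotation and the strand setting: not given in the sources used here.

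log2(value + 1) of 14704 genes (mean value at least 1) was tested with limma 3.58.1 (variance trend, two-sided, Benjamini-Hochberg over all genes, threshold 0.05) in R 4.3.3. This scale understates changes of low genes. The code was run on simulated data without GC dependence of libraries, which does not measure the power in these data. edgeR 4.0.16 and DESeq2 1.42.0 on recovered reads, other pseudocounts (0.1, 5), filters (none, 10), quantile normalization, array weights, a replicate block and each left-out library were alternatives. GC correction (lowess, span 0.3, on GENCODE vM21 longest transcripts, for 14530 genes) was added after seeing the data. Levels per kb use the same transcripts. Same-numbered samples of the 2 groups deviated together over 6532 genes (r = 0.558, 0.603, 0.320 and 0.191 for numbers 1 to 4). Each r exceeded 0.1, but the numbers entered only the replicate block alternatives, and the main tests used no pairing. Differently numbered samples also deviated together, often more closely (r = 0.732 for conditioned 1 with control 2, 0.797 for 4 with 3, 0.413 for 3 with 4 and 0.556 for 2 with 1), and were opposed between numbers 1 or 2 and 3 or 4. These correlations therefore do not establish that same-numbered samples were paired, and the labels give no shared litter or day. All 232 listed genes were matched, 4 by older symbols.

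All 8 values are given for the 4 members with the smallest p per direction, for those whose groups did not overlap and for 10 genes fixed by role, and of other lists the 2 genes with the smallest p are named. The other genes given values (Rap2a, Nr4a2, Penk, Crem, Sst, Fos and the neighbours of Adcy9) were chosen after their values were seen. The members and lists were chosen with earlier results of these data known. Protein sequences and the promoters of Adcy6, Adcy8, Creb3l1, Crtc2 and Pde7a were not used here.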

Additional observations from a re-analysis of the deposited data

Results flagged for a closer look

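Among 80 groups of 4 values (40 pathway genes in both groups), 4 held a sample that stood apart from the other 3 by more than Dixon's 95% critical value for the gap over the range. Chance flags about 1 in 20 groups. Atf2, which binds the CRE, reached 873 in context control replicate 3, with its other controls at 684 to 697 (ratio 0.9337). Prkaca, the PKA catalytic subunit alpha, was 603 in fear conditioning replicate 4 and 901 to 928 in the other conditioned samples (ratio 0.916). Ep300, the acetyltransferase, was at 248 in context control replicate 4, with its other controls at 297 to 304 (ratio 0.8887). Creb3l1 was at 33.6 in context control replicate 2, with its other controls at 11.6 to 15.1 (ratio 0.8406).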

How the results depend on the processing

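Under all 19 alternatives 0 members passed the threshold, with 0.828 as the smallest adjusted p (limma, without fear conditioning replicate 4). The replicate block changed no call, with 0 members past the threshold and 4 instead of 3 at an unadjusted p under 0.05, where all genes at that level went from 397 to 594 of 14704. With 4 samples per group the precision is limited by the spread between samples, and for genes such as Pde8a and Creb3l1 also by few reads. Of the 40 members, 20 kept their sign under every alternative and 20 did not (9 of them only when 1 library was left out), and no member with a log2 difference above 0.1545 in size changed sign. Quantile normalization gave a member median of -0.0049 and reversed Creb1 (-0.0456), Atf2 (-0.0347), Crtc2 (0.0467), Gnas (-0.0293), Adcy1 (-0.0217), Prkar1a (-0.0084), Prkar1b (-0.0162), Prkar2b (-0.0058) and Pde4d (-0.0159). Array weights reversed Creb1 (-0.1341), Atf2 (-0.0193), Crtc1 (0.1161), Crtc2 (0.12), Prkar2b (-0.0291), Pde2a (0.0936) and Pde4d (-0.0399). edgeR and DESeq2 reversed Crtc1 (0.0394 and 0.0466) and Crtc2 (0.0578 and 0.0644). GC correction reversed Creb1 (-0.0234, also with the replicate block). It gave 6 members, or 5 with the block, at an unadjusted limma p under 0.05. All genes at that level also rose, to 785 of 14704, or 843 with the block. The cause of these changes was not tested.

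Leaving out 1 library gave 251 to 802 of all 14704 genes and 1 to 4 members at an unadjusted p under 0.05 (Adcy9 alone without context control replicate 1 or 3 or fear conditioning replicate 3), a member median of 0.0126 (without context control replicate 3) to 0.1314 (without fear conditioning replicate 4), and 1 to 3 members without overlap, a count that fewer samples can raise by construction (3 without context control replicate 4 or fear conditioning replicate 1). The share of all genes without overlap in these fits is not given here. Of all genes, 0 to 1 passed the threshold, the 1 without fear conditioning replicate 4 and no pathway gene. Log2 differences ranged over these fits from -0.229 to 0.1724 for Creb1, -0.0886 to 0.1394 for Atf2, -0.2486 to 0.3175 for Crtc1, -0.2609 to 0.2669 for Crtc2, -0.0331 to 0.3427 for Crtc3, -0.4642 to 0.2168 for Rapgef3, -0.1599 to 0.0402 for Rps6ka2, -0.192 to 0.1843 for Pde2a, -0.0991 to 0.1383 for Pde4d, -0.5882 to 0.4264 for Pde8a, -0.0442 to 0.2781 for Gnas, -0.0565 to 0.3863 for Adcy3, -0.1305 to 0.2857 for Adcy5, -0.1294 to 0.2563 for Adcy6, -0.2548 to 0.1358 for Adcy7, -0.0204 to 0.2425 for Prkaca, -0.0091 to 0.2989 for Prkar1b and -0.0701 to 0.2097 for Prkar2b.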
